A study of Mus musculus with 8 samples.

Results

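MiR-184 is a microRNA (miRNA) that was measured in mouse liver by 1 of the 381 assays listed for the card, and it was 1 of the 166 assays tested. It was chosen for description by its own measured values, namely a level above that of untreated liver at each time of carbon tetrachloride (CCl4) treatment. Its differences from untreated liver are therefore given as a description, with no test. CCl4 is a hepatotoxin that is activated in hepatocytes, and repeated dosing is used to bring about liver fibrosis in rodents. Total RNA from whole liver was measured by quantitative PCR on a TaqMan Array Rodent MicroRNA A Card, a plate with 1 small RNA to a well.

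All groups were female C57B6 mice (C57/BL6 in the methods of the study). The labels give a starting age of 4 weeks for every group, the untreated group included. The untreated group had no treatment, and an injection of corn oil alone is not stated for it. The other 3 groups received CCl4 in corn oil by intraperitoneal injection for 1, 4 or 8 weeks. The labels give the dose as 1 mg/kg and the methods of the study give 1 ml/kg, with 2 injections a week. Each of the 4 groups had 2 cards. The labels do not say whether the cards of a group came from separate mice, so p-values measure only the spread between these cards. The age of the untreated mice at collection is not given, and time on CCl4 and age of the treated mice cannot be told apart. Whole liver mixes many cell types, so fewer cells of a type and less RNA per cell cannot be told apart either.

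A miRNA is cut from a hairpin transcript, and the mature strand guides Argonaute proteins to messenger RNAs that pair with its seed, the bases near its 5′ end. This lowers the translation and stability of those messenger RNAs. MiR-184 is encoded by a single gene and is conserved from insects to mammals. It is best known from the epithelium of the cornea and lens, where it is among the most abundant miRNAs, and from neural stem cells, where MBD1 represses it. In keratinocytes it counters miR-205, an epithelial miRNA that targets the lipid phosphatase SHIP2.

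The sequences of the miR-184 hairpin and of both arms are shown because the assay name gives no arm. A name with no arm customarily stands for the 3p arm. In the RefSeq annotation of the mouse assembly GRCm38.p6, Mir184 lies on the minus strand at chr9:89802260-89802328. No other RefSeq gene overlaps it there. It lies between Ankrd34c and the long non-coding RNA gene 4930524O08Rik, beyond which the first protein-coding gene is Rasgrf1, an imprinted gene. In the hairpin the capitals mark the arms, and in the arms they mark the seed at bases 2 to 8. The 3p arm lies at chr9:89802263-89802284 and the 5p arm at chr9:89802302-89802323.
Mir184 hairpin: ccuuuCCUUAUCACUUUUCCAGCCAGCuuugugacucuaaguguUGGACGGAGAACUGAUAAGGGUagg
miR-184-3p: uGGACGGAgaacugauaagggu
miR-184-5p: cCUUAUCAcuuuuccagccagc

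The seed of miR-184-3p was unlike that of any other mouse miRNA in the RefSeq table. Of 1679 mature names, 1 held the letters GGACGGA at bases 2 to 8, which was miR-184-3p itself. The count was also 1 when only bases 2 to 7 or bases 3 to 8 had to match. The seed contains the dinucleotide CG, which 219 names (13.0%) have in their seed. Rat names, which some assays of the card carry, were not searched.

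MiR-184 crossed the threshold late in untreated liver and earlier on most CCl4 cards. The threshold cycle (Ct) is the number of PCR cycles needed for fluorescence to pass a set line, and a template that is more abundant by a factor of 2 passes it about 1 cycle earlier. The raw Ct of miR-184 was 34.68 and 35.11 on the untreated cards. The 1-week cards had 32.50 and 32.68, the 4-week cards 32.73 and 34.95, and the 8-week cards 31.95 and 33.49. On this raw scale 5 of the 6 treated cards had a lower Ct than both untreated cards, and 4 weeks replicate 2 lay between them.

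The cards differed in overall signal, most within the pairs at 4 and 8 weeks. The card mean Ct, taken over 149 assays that stayed below Ct 35 on all 8 cards, was 28.35 and 27.99 in untreated liver. The 1-week cards had 28.77 and 28.60, the 4-week cards 28.25 and 29.77, and the 8-week cards 27.48 and 28.88. MiR-184 was not among these 149 assays, because its Ct on untreated replicate 2 was above 35. Within the 4-week pair the raw Ct of miR-184 differed by 2.22 and the card mean by 1.52. Within the 8-week pair these gaps were 1.54 and 1.40. The number of assays with a determined Ct ran from 193 on 4 weeks replicate 2 to 235 on 4 weeks replicate 1.

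After centring, all 6 treated cards had a higher level of miR-184 than either untreated card. The log2 level used here is the card mean Ct minus the Ct of the assay. The untreated cards had -6.33 and -7.12. The 1-week cards had -3.73 and -4.08, the 4-week cards -4.48 and -5.18, and the 8-week cards -4.47 and -4.61. The group means were -6.73 ± 0.55 (SD, n = 2) in untreated liver, -3.91 ± 0.25 at 1 week, -4.83 ± 0.49 at 4 weeks and -4.54 ± 0.10 at 8 weeks. The lowest treated card, 4 weeks replicate 2, lay 1.16 above the highest untreated card, replicate 1. Both cards of 1 week lay above those of 4 and 8 weeks, whose ranges overlapped.

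**Figure D1:**
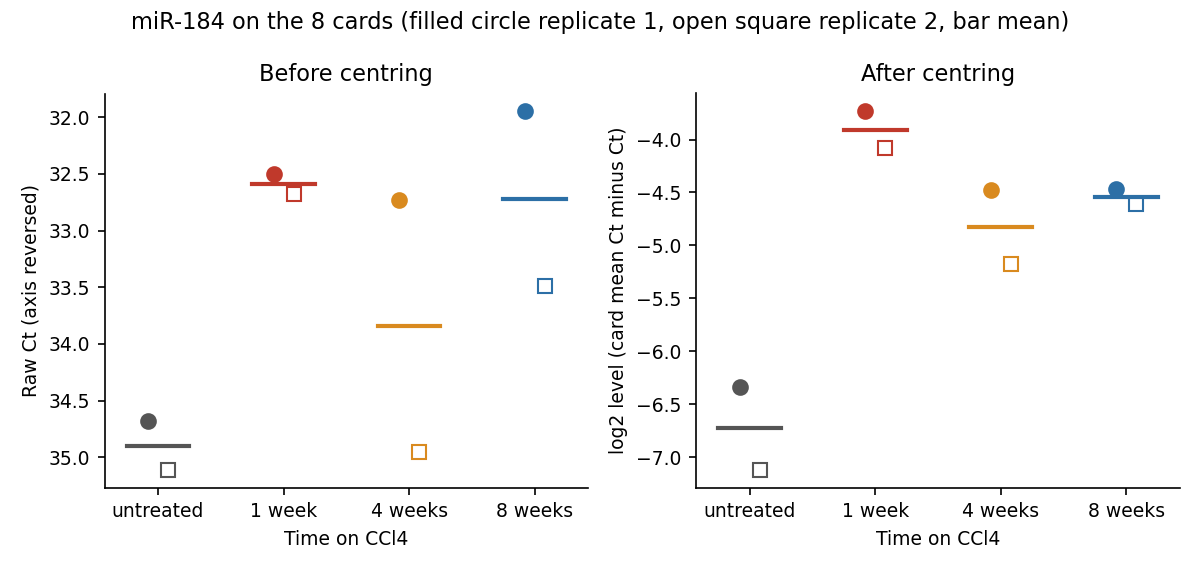
MiR-184 on the 8 cards, as raw Ct on a reversed axis (left) and as log2 level, the card mean Ct minus the Ct (right), by time on CCl4. Circles are replicate 1, squares replicate 2 and bars the mean of the 2 cards. The 4-week and 8-week pairs, 2.22 and 1.54 cycles apart in raw Ct, lie closer together after centring. The untreated and 1-week pairs, 0.43 and 0.18 cycles apart, then lie further apart. All 6 treated cards lie above both untreated cards after centring.

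On a linear scale relative to the untreated mean, miR-184 was 1.27 and 0.735 on the untreated cards. The 1-week cards had 7.67 and 6.02, the 4-week cards 4.59 and 2.82, and the 8-week cards 4.62 and 4.18. The treated range of 2.82 to 7.67 did not reach down to the untreated cards, but the untreated cards were themselves far apart, and miR-184 is a faint assay there.

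The log2 difference from untreated was 2.82 at 1 week (7.05-fold), 1.90 at 4 weeks (3.73-fold) and 2.19 at 8 weeks (4.56-fold), each with an SE of 0.38 from the model over all cards. Over all 6 treated cards it was 2.30, or 4.93-fold. The 12 pairs of a treated and an untreated card differed by 1.16 to 3.38 on the log2 scale. The 3 comparisons share the untreated cards, and both of these enter every value. With 2 cards against 2, the smallest p of an exact two-sided permutation test is 0.333, so such a test cannot reach 0.05.

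Few assays stood higher. Among the 166 tested, miR-184 ranked 7 by log2 difference at 1 week, 11 at 4 weeks and 2 at 8 weeks, and 5 over all treated cards. The median log2 difference of all tested assays was -0.09, 0.03 and -0.04 at the 3 times. For the background, 36.1% of the tested assays had both 1-week cards above both untreated cards, 33.7% both 4-week cards and 28.3% both 8-week cards. All 6 treated cards lay above both untreated cards for 22 assays, or 13.3%. Among those 22, the gap between the lowest treated and the highest untreated card ran from 0.02 for miR-379 to 2.13 for miR-409-3p. The gap of miR-184, 1.16, was the third after miR-34a at 1.25.

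The assays ranked next to miR-184 changed from time to time. At 1 week its neighbours were miR-411, with a log2 difference of 2.98, and miR-34b-3p with 2.74. Those of miR-411 were -0.04 at 4 weeks and 1.14 at 8 weeks. Those of miR-34b-3p, which belongs to the p53-responsive miR-34 family, were 2.89 and 1.55. At 4 weeks the neighbours were the leukocyte miRNA miR-142-3p with 2.00 and miR-339-5p with 1.89, which had log2 differences of -0.20 and -0.21 at 1 week. At 8 weeks miR-409-3p stood above miR-184 with 3.64 and miR-379 below it with 2.00. MiR-409-3p, miR-379 and miR-411 are made from the imprinted Dlk1-Dio3 miRNA cluster.

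**Figure D2:**
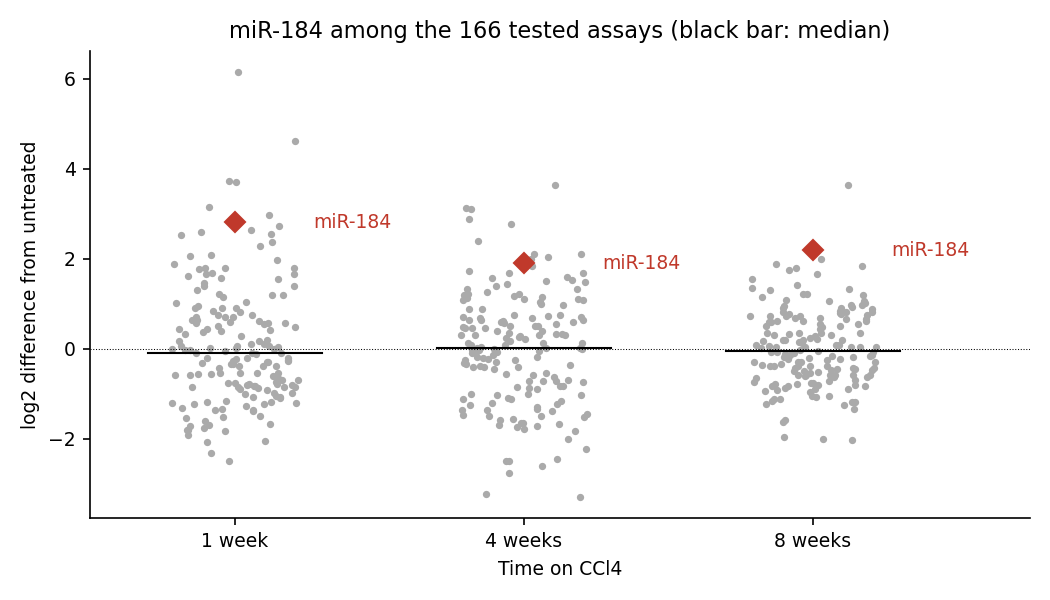
Log2 difference from untreated of each tested assay at 1, 4 and 8 weeks of CCl4. Grey points are the other assays, diamonds miR-184 and black bars the median of all tested assays. MiR-184 ranks 7, 11 and 2 of 166, against medians of -0.09, 0.03 and -0.04.

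The level of miR-184 remained low among the tested assays at every time. Ranked by log2 level from the highest, miR-184 held ranks 162 and 166 of 166 in untreated liver. The 1-week ranks were 138.5 and 146, the 4-week ranks 152 and 153.5, and the 8-week ranks 148 and 150. These ranks set Ct values of different assays side by side, and assays can differ in efficiency. The spread of miR-184 between the cards of a pair was ordinary in spite of the late Ct. Its pooled SD on the log2 scale was 0.395, against a median of 0.390 over the tested assays. The 17 tested assays with a mean Ct above 33, of which miR-184 was 1 with 33.5, had a median SD of 0.514.

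On the scale used here, no difference of miR-184 between the 3 treated times passed limma's moderated test after adjustment over all tested assays. The same treated cards entered the choice of miR-184, so these p-values are a description and decide nothing about the times. The untreated cards enter them too, through the centring set and the SE of the model over all cards. The log2 difference between 4 weeks and 1 week was -0.92 (95% interval -1.81 to -0.02), with an adjusted p of 0.0848. Between 8 weeks and 1 week it was -0.63 (-1.53 to 0.27), with an adjusted p of 0.252. Between 8 and 4 weeks it was 0.29 (-0.61 to 1.19), with an adjusted p of 0.709, and it was -0.07 without 4 weeks replicate 2. These calls depended on the scale. With U6 alone, 4 weeks lay above 1 week by 2.96 (adjusted p 6.01e-05) and 8 weeks above 1 week by 2.86 (1.18e-04). With snoRNA202 alone, the same differences were -1.92 (0.0110) and -1.81 (0.0161). Of all tested assays, limma called 47.0% different between 4 weeks and 1 week, 24.1% between 8 weeks and 1 week and 1.20% between 8 and 4 weeks. Both 1-week cards lay above both 4-week cards for 38.0% of the tested assays and above both 8-week cards for 36.1%, as they did for miR-184.

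The small RNAs that serve as controls on the card did not keep to 1 level, and the choice of scale matters for the order of the times. U6, a spliceosomal small nuclear RNA, had log2 levels of 9.93 and 10.75 in untreated liver. The 1-week cards had 13.01 and 12.43, the 4-week cards 8.78 and 8.88, and the 8-week cards 9.74 and 8.71. It rose by 2.38 at 1 week (limma, adjusted p 0.00800) and fell by 1.50 at 4 weeks (adjusted p 0.0417). The call at 1 week was lost without untreated replicate 1 (1.90) or 1 week replicate 1 (2.11). The call at 4 weeks was lost with card-median centring (-1.55, adjusted p 0.0538), snoRNA135 (-1.47, 0.0571) or snoRNA202 (-1.11, 0.156) as the scale, and when untreated replicate 2 or any 1- or 4-week card was left out (-1.10 to -1.56). With no normalization both calls were lost (1.87 and -2.35), and quantile normalization sets U6, the brightest assay on every card, to 1 level. SnoRNA202, a small nucleolar RNA, fell by 1.39 at 1 week (adjusted p 0.0139). That call was lost with quantile normalization (-1.26, adjusted p 0.0645), snoRNA135 as the scale (-1.12, 0.0685) or no normalization (-1.90, 0.232), and without untreated replicate 1 or either 1-week card (-1.35 to -1.41). SnoRNA135 had log2 differences of -0.27, -0.03 and -0.06 at the 3 times, and none passed the test on the scale used here. At 1 week it passed with U6 (-2.64, adjusted p 5.76e-04) or snoRNA202 (1.12, 0.0312) as the scale.

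SnoRNA135 was the control that moved least on the scale used here. Scaled to it, the log2 differences of miR-184 from untreated were 3.08 at 1 week, 1.93 at 4 weeks and 2.24 at 8 weeks. Scaled to snoRNA202 they were 4.21, 2.30 and 2.40. Scaled to U6 they were 0.44, 3.40 and 3.30, and the 1-week cards of miR-184 then lay between the untreated cards. With the mean of the 3 controls they were 2.58, 2.54 and 2.65. A shift of a whole card moves every assay equally, so the rank of miR-184 among the assays is the same under each of these scalings. Relative to the median of all tested assays, miR-184 was higher by 2.91, 1.87 and 2.23 at 1, 4 and 8 weeks. After quantile normalization these values were 2.60, 1.67 and 1.96, and the ranks were 8, 14 and 2. The median of all tested assays itself moved by more than 0.1 under most scalings, and with U6 it was -2.48, 1.54 and 1.09.

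**Figure D3:**
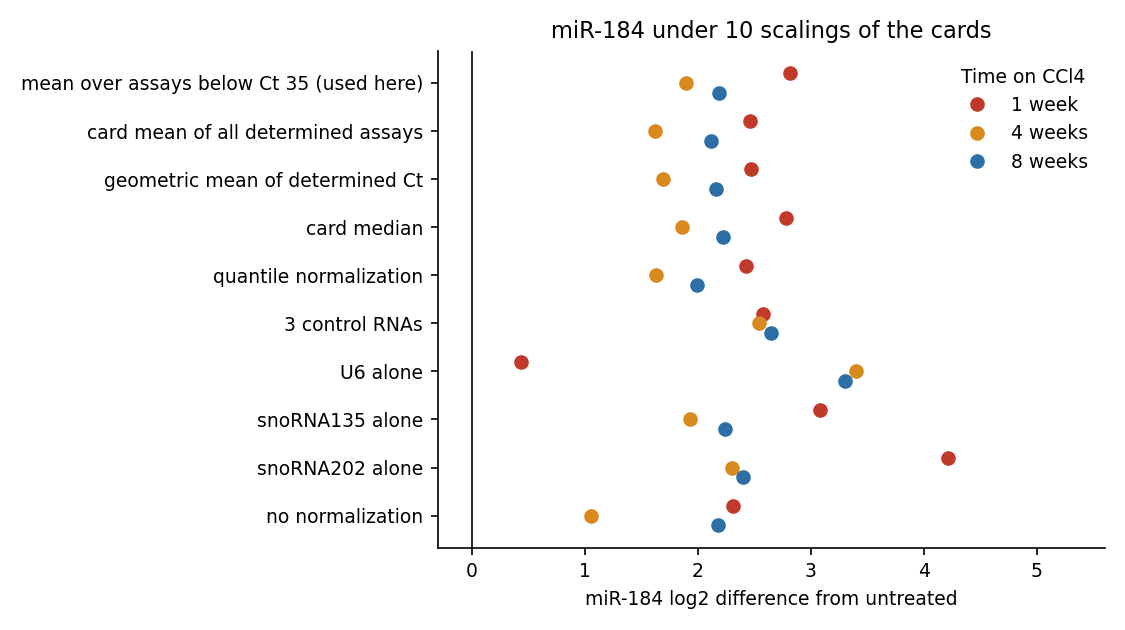
Log2 difference of miR-184 from untreated at 1, 4 and 8 weeks of CCl4 (colours) under 10 scalings of the cards, 1 per line. Every value lies above 0, the lowest being 0.44 at 1 week when U6 alone is used, and the order of the 3 times changes with the scale.

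The assays whose pattern was nearest to miR-184 were miR-379, miR-342-3p, miR-34a, miR-223 and miR-450a-5p. Likeness was measured over the 8 cards as the root mean square difference of log2 values, each taken relative to the untreated mean of its assay. It was 0.664, 0.737, 0.773, 0.817 and 0.905 for these 5. Being near to an assay chosen for its rise above untreated, they are high on treated cards by construction. A shift of a whole card cancels in this measure, so the card-wise scalings name the same 5. Quantile normalization shared 4 of them, and ranking by Pearson correlation over the 8 cards shared 2, miR-379 and miR-34a.

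In time order, the pairs of treated cards gave miR-184 itself relative log2 values of 2.99 and 2.64, then 2.25 and 1.55, then 2.26 and 2.12. MiR-379 had 2.43 and 2.16, then 1.68 and 0.08, then 2.00 and 1.99, so that it met miR-184 at 8 weeks and lay apart on 4 weeks replicate 2. MiR-342-3p, a miRNA of lymphoid and myeloid cells made from an intron of Evl, had 2.45 and 2.66, then 1.88 and 1.50, then 1.36 and 0.68. It lay close to miR-184 at 1 and 4 weeks and below it on both 8-week cards.

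MiR-34a, a direct target of p53, had relative log2 values of 1.83 and 1.29, then 1.40 and 1.48, then 1.52 and 1.81. It was the flattest of the 5 across the treated times and lower than miR-184 on all 6 treated cards. MiR-223, a miRNA of neutrophils and other myeloid cells, had 2.28 and 1.83, then 2.91 and 2.63, then 1.30 and 1.15, with its highest values at 4 weeks. MiR-450a-5p, made from an X-linked cluster with miR-322 and miR-503, had 2.27 and 3.03, then 2.42 and 3.85, then 1.53 and 2.25. Its value on 4 weeks replicate 2 was its highest, on the card where miR-184 was at its lowest treated value.

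Of the 5 nearest assays, 2 had a name equal to a mature RefSeq name, and their seeds are shown to set them beside that of miR-184. The capitals mark bases 2 to 8, and neither seed matches GGACGGA.
miR-342-3p: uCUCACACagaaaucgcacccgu
miR-450a-5p: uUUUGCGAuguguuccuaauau

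**Figure D4:**
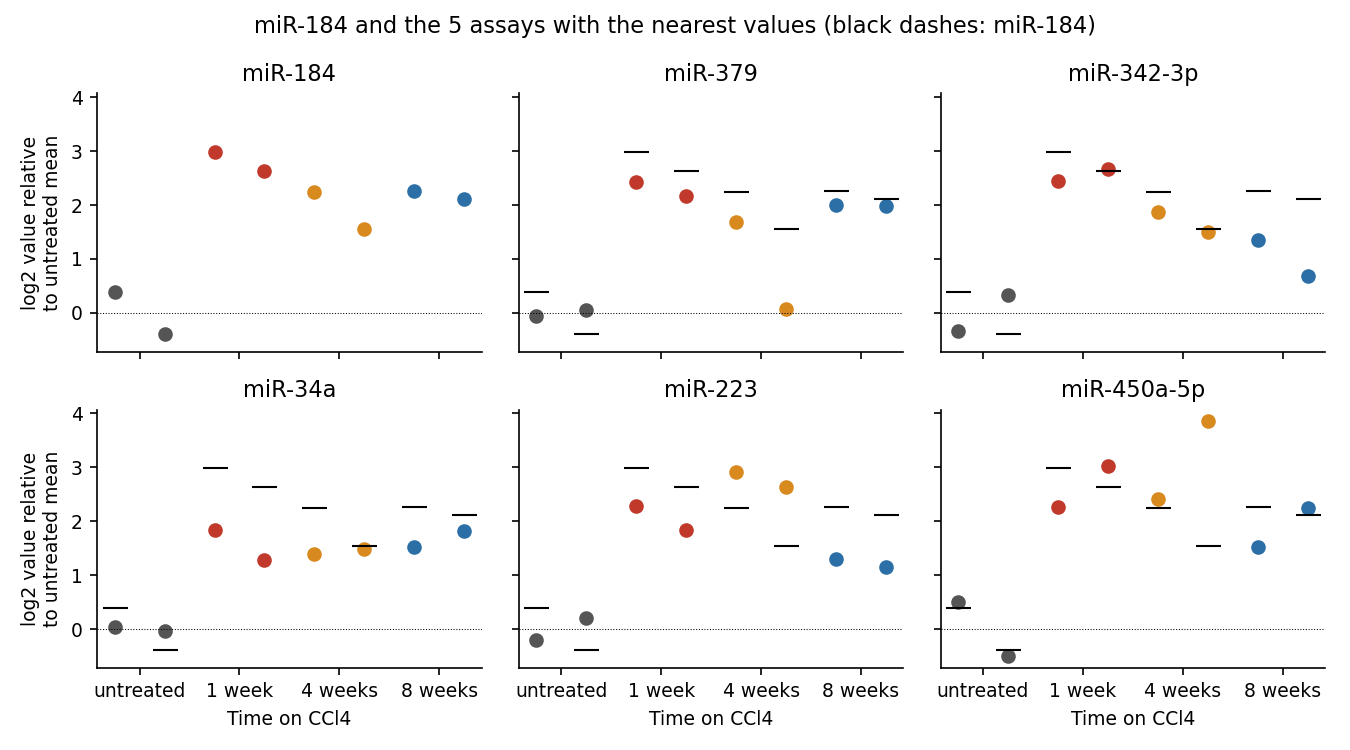
Log2 value relative to the untreated mean on each card for miR-184 and its 5 nearest assays, with replicate 1 left of replicate 2 in each group. Black dashes repeat miR-184. MiR-34a lies below the dashes on all 6 treated cards, and miR-223 and miR-450a-5p lie above them on both 4-week cards.

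Markers of the tissue were checked beside miR-184. MiR-122, the most abundant miRNA of hepatocytes, had log2 differences from untreated of -1.20, -0.23 and 0.09, which did not pass the test. Limma called 18.1% of the tested assays higher and 14.5% lower at 1 week, 13.3% higher and 16.9% lower at 4 weeks, and 2.41% higher and 0.602% lower at 8 weeks. These shares moved with the scale. With U6, 75.2% of the assays tested were called lower at 1 week and 48.5% higher and 1.21% lower at 4 weeks, and with snoRNA202 49.1% were called higher at 1 week and none lower. With the geometric mean, 10.8% were called higher at 1 week and 7.23% at 4 weeks, and with no normalization 2.41% and 0.602%. At 4 weeks 28.2% were called higher and 6.75% lower with the 3 controls, and 20% and 6.06% with snoRNA202. Lower calls at that time made up 9.7% with snoRNA135 and 5.42% with no normalization. At 8 weeks 24.2% were called higher with U6, 6.75% with the 3 controls and 1.81% with quantile normalization. List counts under those scales stand against these shares.

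Leukocyte miRNAs were higher on the cards of 1 and 4 weeks. All 7 listed were determined on every card and tested, and 6 rose at 1 week and 5 at 4 weeks by limma, and none passed at 8 weeks. Their median log2 differences were 1.79, 1.60 and 0.82, against 2.82, 1.90 and 2.19 for miR-184. MiR-342-3p and miR-223, which are also among the 5 assays nearest to miR-184, were among them. MiR-342-3p rose by 2.55 at 1 week (adjusted p 0.00373) and by 1.69 at 4 weeks (0.0134). MiR-223 rose by 2.06 (0.00411) and by 2.77 (0.00168), and its difference of 1.22 at 8 weeks did not pass (0.0792). A sum of linear levels is led by the brightest assays, and assays can differ in efficiency. For the 7 listed, the log2 of that sum was 4.86 to 5.61 in untreated liver. It was 7.17 to 7.21 on the 1-week cards, 6.75 to 7.19 on the 4-week cards and 5.78 to 6.32 on the 8-week cards. Their part in the level of miR-184 was not tested. Fewer rose at 1 week in some fits that left out 1 card, and at 4 weeks in every such fit. The counts moved with the scale. With centring on the arithmetic or the geometric mean Ct of every assay with a value on the card, the latter being the normalization named in the methods of the study, 3 rose at 1 week and 2 at 4 weeks. The 4-week call of miR-342-3p was lost there (adjusted p 0.0817 and 0.0658). With U6 none rose at 1 week, 7 at 4 weeks and 4 at 8 weeks, and 1 fell at 1 week. At 8 weeks 1 rose with quantile normalization and with the 3 controls, miR-223 in both (1.39, adjusted p 0.0235, and 1.68, 0.0357). With no normalization none passed at any time, with log2 differences of 2.04 at 1 week for miR-342-3p (0.179) and of 1.54 and 1.92 at 1 and 4 weeks for miR-223 (0.327 and 0.156).

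The tested hepatocyte miRNAs other than miR-122 were lower at 4 weeks. Of 7 listed, 6 were tested, and 1 fell at 1 week, 5 at 4 weeks and 1 at 8 weeks by limma. MiR-122 was the tested member that did not fall at 4 weeks, with -0.23 (adjusted p 0.740). MiR-802 fell at all 3 times, with log2 differences of -1.72, -3.28 and -2.04 (adjusted p 0.00570, 9.21e-04 and 0.0123), and the call at 8 weeks was lost without either untreated card, without 1 week replicate 1 or without either 8-week card. MiR-192, which is shared by liver, gut and kidney, fell by 2.76 at 4 weeks (0.00455), a call lost with U6 as the scale (-1.26, 0.128). The log2 of the summed linear levels of the 6 tested was 7.82 to 7.87 in untreated liver. It was 7.05 to 7.10 on the 1-week cards, 6.29 to 6.45 on the 4-week cards and 7.09 to 7.31 on the 8-week cards. The sum was lowest at 4 weeks, and its part in the level of miR-184 was not tested. With U6 as the scale, where 75.2% of all assays were called lower at 1 week, all 6 fell at that time and 1 at 4 weeks. With snoRNA202 none fell at 1 week and 3 at 4 weeks, and under the other scalings 0 to 2 fell at 1 week and 4 or 5 at 4 weeks. The 8-week call of miR-802 was also lost with the card mean (-2.11, adjusted p 0.0840) or the geometric mean (-2.07, 0.0668) of all determined assays, snoRNA202 (-1.82, 0.0547), U6 (-0.93, 0.340) and no normalization (-2.05, 0.945). Its 1-week call was lost with snoRNA202 (-0.32) and no normalization (-2.23).

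MiRNAs of other liver cell types passed the test at 4 weeks in the mesenchymal and endothelial lists. Of 4 tested mesenchymal miRNAs, of stellate and smooth muscle cells, 2 rose at 4 weeks, miR-214 by 1.69 (adjusted p 0.0110) and miR-199a-3p by 1.09 (0.0457). No more than 1 of them passed when any 1 card was left out, and 0 to 3 rose at 4 weeks under the other scalings. Among those, the call of miR-199a-3p was kept only with the 3 controls (1.74), snoRNA202 (1.49) and U6 (2.60). With no normalization its difference was 0.25, and the call of miR-214 was lost too (0.84). At 1 week no mesenchymal miRNA passed on the scale used here, while all 4 fell with U6 and 3 rose with snoRNA202. Both endothelial miRNAs fell at 4 weeks, miR-126-3p by 1.83 and miR-126-5p by 1.65, and neither passed without untreated replicate 2 or without 4 weeks replicate 2. Only 1 of them passed without untreated replicate 1 or without either 1-week card. At 4 weeks neither endothelial call was kept with quantile normalization, the 3 controls, U6, snoRNA202 or no normalization, and that of miR-126-5p was lost with snoRNA135. Over all scalings the log2 difference ran from -2.67 to -0.32 for miR-126-3p and from -2.49 to -0.14 for miR-126-5p, the first of each with no normalization and the last with U6. At 1 week both endothelial miRNAs fell with U6, and miR-126-3p rose by 2.03 with snoRNA202 (adjusted p 0.0140). None of the 4 bile duct epithelial and 2 erythroid miRNAs tested passed at any time on the scale used here, with median log2 differences of 0.42, -0.52 and -0.71 and of -0.34, 0.18 and 0.39. Some bile duct miRNAs passed at 1 or 4 weeks when single cards were left out. At 1 week 3 bile duct and 2 erythroid miRNAs fell with U6, and 3 and 1 rose with snoRNA202, scales on which 75.2% of all assays were called lower and 49.1% higher.

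Among the miRNAs known together with miR-184 from cornea, lens and skin, 1 rose at 1 week and 2 fell at 4 weeks. Of 8 listed, 4 were tested. MiR-205, its counterpart in keratinocytes, was determined on 2 cards with a lowest Ct of 34.97, and miR-204, a lens and retinal pigment miRNA, on 1 card with a Ct of 36.01. MiR-203, a skin miRNA that limits the proliferation of basal keratinocytes, had log2 differences of 0.28, -2.50 and -1.18, and the second passed the test (adjusted p 0.00168). MiR-31 rose by 0.90 at 1 week (0.0465) and fell by 1.24 at 4 weeks (0.0142), and the call at 1 week was lost without any 1 of the 8 cards. Its 4-week call was lost with quantile normalization (-0.79, adjusted p 0.0825), the 3 controls (-0.60) or snoRNA135 (-1.21, 0.0571). It was also lost with snoRNA202 (-0.85) or no normalization (-2.09), and with U6 the difference was 0.26. The number of these miRNAs that rose or fell at 4 weeks also changed when single cards were left out. At 1 week 3 rose with snoRNA202 and none under the other alternative scalings, and 3 fell with U6. At 4 weeks none fell with U6 and 1 with the 3 controls, snoRNA135, snoRNA202 or no normalization, while 1 rose with the 3 controls, U6 or snoRNA202. MiR-183 and miR-182 did not pass at any time on the scale used here, and miR-183 had -0.86, 1.57 and 1.43. The medians of the list were 0.49, -0.91 and -0.44.

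Most neural miRNAs were not determined on every card or did not pass the test. Of 12 listed, 5 were tested, and 1 passed, miR-7a, which fell by 2.06 at 1 week (adjusted p 0.00790). That call was lost without untreated replicate 1 or without 1 week replicate 1, and with snoRNA202 (-0.67) or no normalization (-2.57). MiR-124, the main neuronal miRNA, was determined on 1 card and miR-9 on 3. MiR-138 had log2 differences of 1.80, -1.57 and 0.34. The medians of the list were 0.91, -0.70 and 0.04. Which members passed changed when a card was left out, and such fits leave 1 card in a group. At 1 week 2 members fell with U6 and 2 rose with snoRNA202, and at 4 weeks 2 rose with U6.

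**Figure D5:**
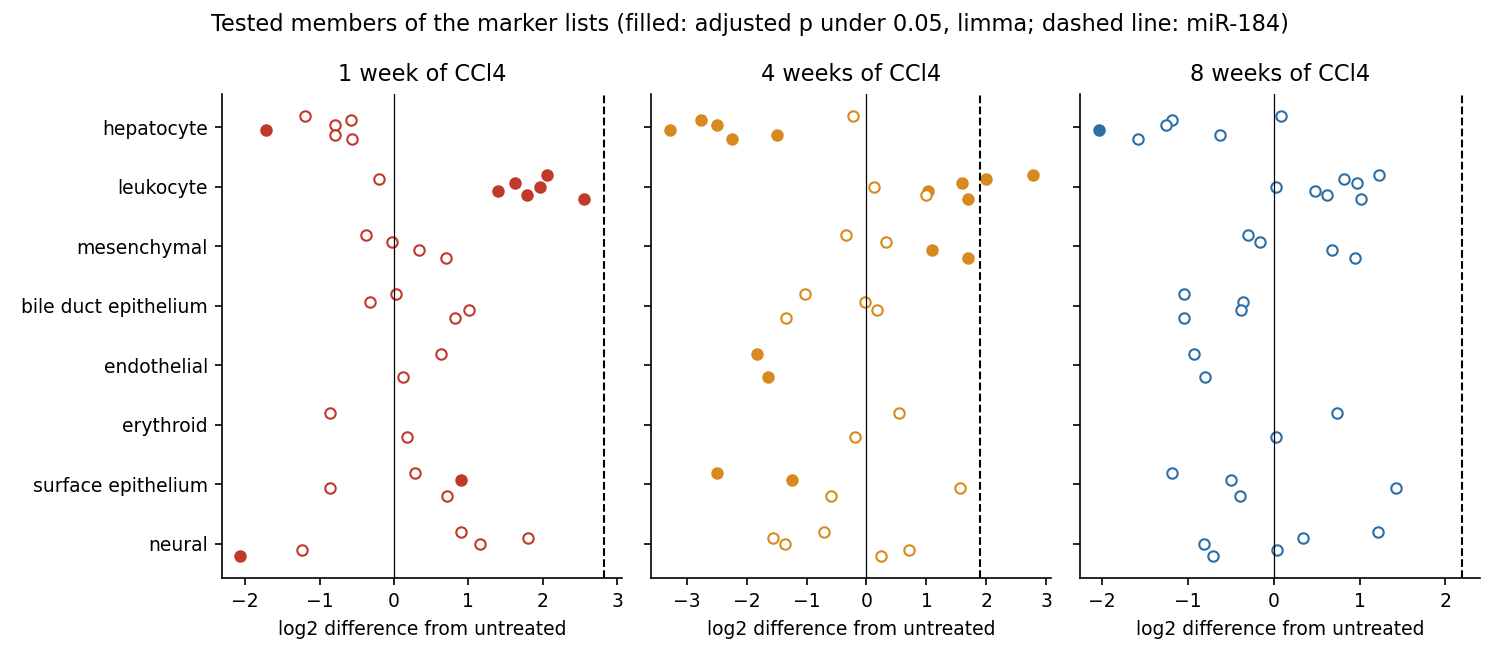
Log2 difference from untreated of the tested members of 8 marker lists at 1, 4 and 8 weeks of CCl4. Filled points passed limma at an adjusted p of 0.05, and the dashed line marks miR-184, at 2.82, 1.90 and 2.19. The leukocyte median, 1.79 and 1.60, is the nearest of the list medians to the line at 1 and 4 weeks, and no list member reaches the line at 8 weeks.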

How the data were processed

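The authors extracted total RNA from whole liver with a mirVana kit, reverse-transcribed it with Megaplex primers without pre-amplification, and ran 1 card per sample. They deposited raw Ct values, a minus log2 scale, with no normalization and no pooling. The software that set the threshold is not given in the sources used here. The deposited fold changes, ratios of each group to the untreated group from DataAssist, are the authors' own comparisons and were not used. The series' text gives 4, 3 and 2 mice at 1, 4 and 8 weeks and the labels 2 cards at each time, and all 8 cards were used.

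The level of an assay was its Ct subtracted from the card mean Ct, in log2 units. The mean was taken over the 149 assays that stayed below Ct 35 on all 8 cards. MiR-184 itself is not among these 149. Of 168 assays with a Ct on all 8 cards, the 166 whose mean Ct was below 35 were fitted in 1 model with limma 3.58.1 under R 4.3.3 (functions lmFit and eBayes, with 3.47 prior degrees of freedom). P-values were adjusted by Benjamini and Hochberg within each comparison over all 166 assays, with a threshold of 0.05. The number of cards limits the precision. Plots were drawn with matplotlib 3.10.9.

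MiR-184, the marker lists and the tests were chosen with earlier results of these data known. Named assays were miR-184, the 5 nearest to it, its neighbours in rank at each time, up to 4 members of each list with the largest mean absolute difference, and the control RNAs. MiR-122, miR-204, miR-205, miR-124, miR-9 and some further list members were named after their values were seen. Alternatives were other scalings of the cards, other Ct limits, a Ct of 40 for undetermined wells, the 2 groups of a comparison fitted alone, a mean-variance trend in eBayes, a threshold of 0.10, a block for the replicate number, and leaving out any 1 card. The values of single named assays other than miR-184 without each card, and of named list members under the other scalings, were added after the data were seen. The counts of 1 further list are not reported here. Sequences and gene positions come from RefSeq tables of GRCm38.p6. No genome build is named with the deposited values.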

Additional observations from a re-analysis of the deposited data

Results flagged for a closer look

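Among the assays nearest to miR-184, 2 of 5 differed between treated times by limma, 1 between 4 weeks and 1 week and 1 between 8 weeks and 1 week. Of all tested assays, 47.0% were called in the former comparison and 24.1% in the latter, so these counts do not exceed the background. MiR-379 was lower at 4 weeks than at 1 week by a log2 difference of -1.412 (adjusted p 0.0482), and the difference did not pass when the card mean was taken over every assay with a Ct on that card (-1.33, adjusted p 0.113). Without 4 weeks replicate 2 it was -0.54 (adjusted p 0.261), and it passed in 1 of the 8 fits that left out 1 card, that without 4 weeks replicate 1. MiR-342-3p was lower at 8 weeks than at 1 week by -1.530 (adjusted p 0.0320), and with that centring it did not pass (-1.24, adjusted p 0.136). Nor did it pass without either 1-week card (-1.67 and -1.44) or without 8 weeks replicate 2 (-1.18). With U6 as the scale both differences turned, to 2.47 and 1.96. The corresponding differences of miR-184, -0.92 and -0.63, did not pass, and whether they differ from those of the nearest assays was not tested.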

How the results depend on the processing

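All values of miR-184 against untreated were above 0 under the 22 alternatives that gave one. A mean Ct below 32 leaves miR-184 out and gave no value. With the mean of the 3 control RNAs the log2 differences were 2.54 at 4 weeks, 2.65 at 8 weeks and 0.07 between 8 weeks and 1 week. With U6 alone they were 0.44, 3.40 and 3.30 at 1, 4 and 8 weeks, 2.96 between 4 weeks and 1 week, 2.86 between 8 weeks and 1 week and -0.11 between 8 and 4 weeks. With snoRNA202 alone they were 4.21 and 2.30 at 1 and 4 weeks, 2.97 over all treated cards, -1.92 between 4 weeks and 1 week (adjusted p 0.0110) and -1.81 between 8 weeks and 1 week (adjusted p 0.0161). Raw Ct gave 2.31, 1.06 and, over all treated cards, 1.85. The control RNAs' own differences stand in the report, and the cause was not tested.

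Leaving out 1 card gave 2.41 to 3.14 at 1 week, 1.50 to 2.26 at 4 weeks, 1.78 to 2.55 at 8 weeks and 1.90 to 2.65 over all treated cards, the lowest of each without untreated replicate 2. It gave -1.27 to -0.50 between 4 weeks and 1 week, -0.82 to -0.49 between 8 weeks and 1 week, and -0.07 to 0.64 between 8 and 4 weeks, with -0.07 without 4 weeks replicate 2. The remaining card of a pair is then assumed to vary like the other groups. Over all alternatives the adjusted p ran from 6.01e-05 to 0.956 for 4 weeks against 1 week, from 1.18e-04 to 0.952 for 8 weeks against 1 week and from 0.411 to 0.960 for 8 against 4 weeks. With a replicate block the differences were as before (-0.92, -0.63 and 0.29 between times), with adjusted p of 0.0516, 0.176 and 0.630, and no call of miR-184 changed. The labels do not say whether the replicate numbers pair the cards. Differences between replicates 1 and 2 correlated from -0.50 to 0.43 between groups over the 166 assays, which cannot settle it.

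Counts over all assays are given as the range over 24 alternatives of every kind. Calls higher at 1 week ran from 2 to 81 (30 in the report) and lower from 0 to 124 (24). At 4 weeks they ran from 1 to 80 (22) and from 2 to 35 (28), and at 8 weeks from 0 to 40 (4) and from 0 to 5 (1). Between 4 weeks and 1 week, calls higher ran from 7 to 150 (36) and lower from 0 to 73 (42). Between 8 weeks and 1 week they ran from 1 to 157 (17) and from 1 to 77 (23), and between 8 and 4 weeks from 0 to 6 (1) and from 0 to 3 (1). A Ct near 35 limits miR-184 in untreated liver, where its level rests on 2 late values.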
